A study of Mus musculus with 15 samples.

Results

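The alpha-globin downstream flank is the stretch of mouse chromosome 11 that follows the alpha-globin genes on the side away from their enhancers. It was taken as every DpnII fragment whose midpoint falls in chr11, 32204980 to 32699946 in mm9, a stretch that begins 7.40 kb past the second alpha-globin viewpoint. DpnII is the enzyme that cut the chromatin, and the flank holds 1063 of its fragments, of 145875 fragments of chromosome 11 in the alpha-globin tables. Of these, 1059 appear in both tables, 1044 held at least 1 read over the 9 replicated libraries and 88 held 90 or more, so fragments were summed in 5 kb bins (99) and in 45 kb blocks (11). The data are NG Capture-C, in which neighbouring restriction fragments are ligated and the products that contain a chosen promoter are captured with oligonucleotides. Here the captured promoters are those of the Hba-a1 and Hba-a2 genes, read as 1 viewpoint, and a read in the flank is a ligation between a flank fragment and a viewpoint.

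Of the 15 libraries, 14 came from erythroid cultures of mouse fetal liver (E12.5, strain F1 C57Bl6/CBA). These cultures were expanded for 5 to 7 days with erythropoietin, stem cell factor and dexamethasone, then depleted of Ter119-positive cells. Differentiation in high erythropoietin lasted 18 h. Control cultures carry no deletion that the labels name. R1R2_KO lacks the alpha-globin regulatory elements R1 and R2, and R2R3_KO lacks R2 and R3, with 3 libraries in each of these groups, named biological replicates. R1_KO, R2_KO, R3_KO, Rm_KO and R4_KO each lack the 1 element of that name and have 1 library each. Whether the deletions are homozygous, and whether embryos were pooled, is not stated in the labels. The last library, also unreplicated, is from the embryonic stem (ES) cell line of strain 129/Ola. Its labels repeat the fetal liver protocol, so how the line was grown is not given. Contact counts hold no expression values, so the cell types could not be checked against marker genes.

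The alpha-globin genes encode the alpha chain of haemoglobin and are switched on in red cell precursors. Their regulatory elements lie upstream, within and beside the neighbouring gene Nprl3, and in erythroid cells promoters and elements meet inside a contact domain that is weak or missing in ES cells. In the RefSeq gene order (assembly GRCm38.p6, another build than the tables, used for order alone), Hba-a2 is followed by Hbq1a, a theta-globin gene, the long noncoding RNA gene Gm46275, and then Sh3pxd2b, Ubtd2, Efcab9, Stk10 and Fbxw11. Sh3pxd2b encodes an adaptor protein of podosomes, Stk10 a kinase of lymphocytes and Fbxw11 a substrate receptor of an SCF ubiquitin ligase. None of them is known for haemoglobin production.

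The 2 captured promoters are shown because their near identity sets what a flank read can mean. Each sequence runs from 250 bases before to 50 after the gene start (RefSeq, GRCm38.p6, chr11, plus strand, 32283422 to 32283721 for Hba-a1 and 32296242 to 32296541 for Hba-a2), and capitals mark the run that both share.
Hba-a1: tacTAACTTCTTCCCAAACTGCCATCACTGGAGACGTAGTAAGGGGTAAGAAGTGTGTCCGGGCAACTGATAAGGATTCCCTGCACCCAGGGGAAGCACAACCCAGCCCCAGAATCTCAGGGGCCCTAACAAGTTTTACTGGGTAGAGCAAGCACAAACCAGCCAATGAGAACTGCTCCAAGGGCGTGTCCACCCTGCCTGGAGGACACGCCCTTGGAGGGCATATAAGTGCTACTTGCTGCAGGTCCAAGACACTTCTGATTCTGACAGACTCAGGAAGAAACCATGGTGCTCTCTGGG
Hba-a2: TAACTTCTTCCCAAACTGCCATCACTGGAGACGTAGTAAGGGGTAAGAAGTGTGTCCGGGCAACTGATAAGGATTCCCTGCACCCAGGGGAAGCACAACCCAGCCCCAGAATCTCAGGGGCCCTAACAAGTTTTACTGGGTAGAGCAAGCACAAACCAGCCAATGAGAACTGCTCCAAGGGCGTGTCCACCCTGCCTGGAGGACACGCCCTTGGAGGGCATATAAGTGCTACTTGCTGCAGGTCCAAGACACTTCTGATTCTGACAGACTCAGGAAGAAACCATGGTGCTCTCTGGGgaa
The shared run covers 297 of 300 bases. Neither window holds GATC, the letters DpnII cuts (a palindrome, so both strands are covered), while 48.0% of 32851 RefSeq promoter windows of the same length do. No label or header says how reads from these copies were placed, so a flank read cannot be assigned to Hba-a1 or Hba-a2.

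Values are reads per 100000 chromosome 11 reads lying more than 2 kb from the viewpoints (the chr11 scale). Because these reads include the enhancer cluster and the globin genes, a second scale of reads per 100000 chromosome 11 reads more than 500 kb away (the far scale) is given beside it. Depth was 41604 to 89136 chr11-scale reads in the replicated libraries and 236920 to 536884 in the single ones, so single-library values carry less counting error but no replicate check. Far reads made up 26.5% to 30.4% of the chr11-scale reads in control, 39.2% to 40.9% in R1R2_KO, 36.6% to 37.6% in R2R3_KO, 27.5% to 32.9% in the single deletions and 31.2% in ES. The far share did not overlap between control and either paired deletion, so a region that is level on one scale is not level on the other. For R2R3_KO the far share also lay apart from control at the other viewpoints of the same libraries, as given below. Single deletions and ES were tabulated apart from the control, with no control library in their table. Their ratios to other libraries, and their counts of blocks or bins above or below others, stayed within that table. Where their profile values are set beside the replicated libraries, a difference between tables cannot be told apart from one between groups.

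Contact fell in 2 stages past the globin genes, first unevenly over 20 kb and then steeply. In control the first 5 kb bin (32204980 to 32210016) held 1735, 1818 and 1738 reads per 100000 in libraries 1, 2 and 3, close to the 1619, 1613 and 1617 of the bin just before the flank. The next bin, with 8 fragments against 18 in the first, held 658, 834 and 775, and those after it, with 17 and 10 fragments, held 1223 ± 111 and 765 ± 78.2 (SD, n = 3). At 20 to 25 kb (32224325 to 32230057) the control value was 343 ± 35.3, at 25 to 30 kb 287 ± 9.63, and at 30 to 35 kb 161 ± 18.1. By 45 to 50 kb it was 107 ± 22.7, and from 65 kb to 85 kb it stayed at 24.6 to 40.8. Bins hold 4 to 18 fragments in this stretch, and the part of fragment number in the unevenness between neighbouring bins was not tested.

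The steepest fall was placed by comparing the mean of the 4 bins after each bin edge with the mean of the 4 bins before it. In the control mean it lay 30 kb into the flank, where contact dropped by 2.37 on the log2 scale (-2.42, -2.29 and -2.40 in the 3 libraries, each of which had its steepest fall there). At that edge R1R2_KO gave -1.68, -1.91 and -2.05, R2R3_KO -2.19, -2.19 and -1.93, and the single deletions -2.15 to -2.60. The steepest fall lay at 20 kb instead in R1R2_KO libraries 1 and 2 (-1.88 and -2.15) and in R1_KO. The edges were nearly tied in R1_KO (-2.159 at 20 kb and -2.150 at 30 kb), and the control mean gave -2.29 at 20 kb. In R2R3_KO library 2 the steepest fall lay at 450 kb, where its next 4 bins held 0 to 7.54 reads per 100000. At 30 kb all R1R2_KO libraries fell less than all control libraries, and so did all R2R3_KO libraries. ES fell by only 1.25 on the log2 scale, and its own steepest fall lay at 20 kb (-1.48, against -2.28 to -2.30 in control). The bins of the first 20 kb held 19.2 to 21.4 times the mean of those at 45 to 90 kb in control, 10.1 to 13.5 times in R1R2_KO, 14.3 to 15.2 times in R2R3_KO, 15.9 to 21.1 times in the single deletions and 6.19 times in ES.

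**Figure D1:**
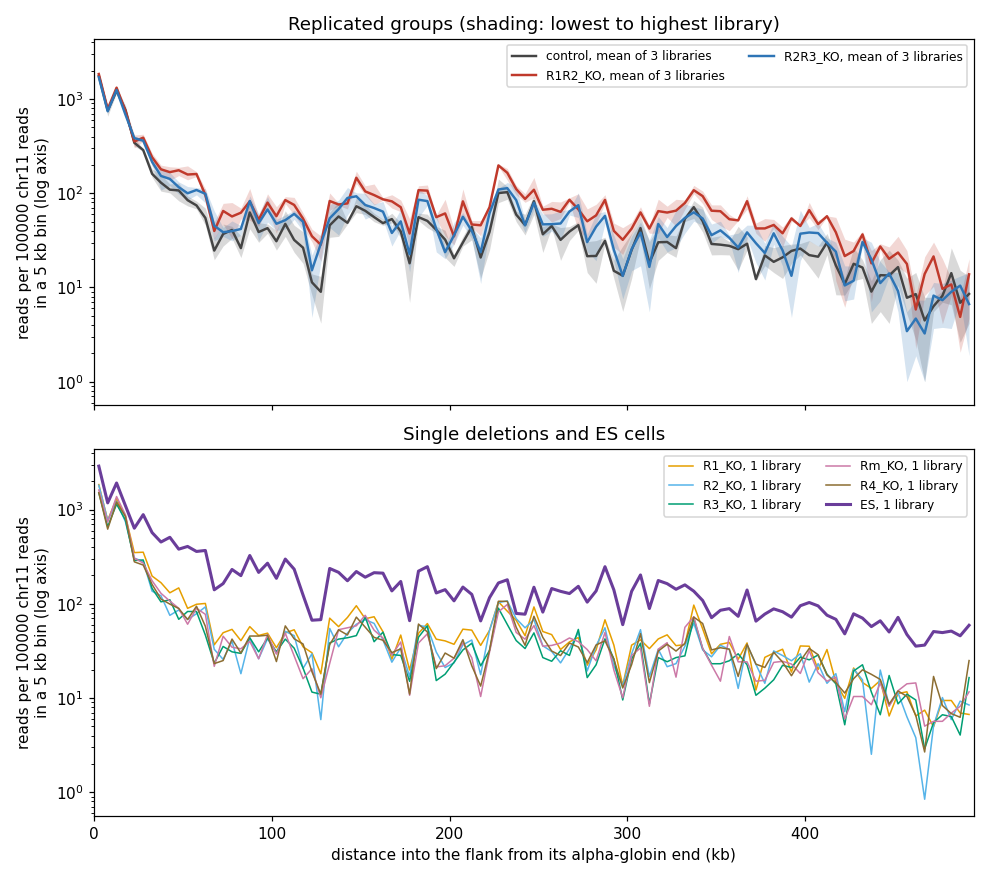
Reads per 100000 chr11 reads in each 5 kb bin (log axis) against distance into the flank in kb; upper panel, means of control, R1R2_KO and R2R3_KO with shading from the lowest to the highest of 3 libraries; lower panel, 1 line per single-deletion or ES library. The curves meet over the first 20 kb of the upper panel, the R1R2_KO mean runs above the control mean over most of the rest, and the ES line lies above the 5 single deletions in all 99 bins on this scale.

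The far part of the flank was not a smooth slope. Beyond the steep fall a trough lay at 120 to 130 kb, where control bins held 11.3 ± 2.84 and 8.99 ± 4.50 (SD, n = 3) on 4 and 5 fragments. In the control mean the strongest rise followed at the 130 kb edge, by 1.51 on the log2 scale. It was 1.84, 1.36 and 1.32 in the control libraries, 0.88 to 1.07 in R1R2_KO and 0.79 in ES at that edge. The 10 kb stretches before the edge hold 19 and 9 fragments and those after it 25 and 23, and the part of fragment number in the rise was not tested. Library by library the strongest rise lay elsewhere in most: at 135 kb in control 1 and 3, and at the 220 kb edge, just before the local high described next, in control 2 (1.51) and in all 3 R1R2_KO libraries (1.23, 1.54 and 1.40). A local high stood in the bin that starts at 225 kb and the next (32430234 to 32439550 together), where control libraries held 142, 79.4 and 80.3 in the first bin and 118, 86.4 and 104 in the second. These bins were 2.37 and 2.39 times the mean of the surrounding bins in control, 1.93 to 2.71 and 1.55 to 2.88 times in the single deletions, and 1.59 and 1.58 times in ES. No single fragment made it: of its 24 fragments the strongest, 32436628 to 32437371, held 7.78% of the control reads. The high was picked out after its values were seen, so it is given without a test, and the same holds for one at 335 to 340 kb, where control was 2.64 times its surroundings and ES 1.22 times.

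Without R1 and R2, alpha-globin contact with the flank rose beyond its first 25 kb and stayed level within them, on the chr11 scale. Flank totals were 8768, 9057 and 8218 in control and 11861, 11471 and 12126 in R1R2_KO, so the lowest R1R2_KO library exceeded the highest control library (log2 ratio 0.45, exact two-sided permutation p = 0.1, the smallest that 3 against 3 allows). On the far scale the totals were 28811, 34201 and 30999 in control and 28994, 29129 and 30945 in R1R2_KO. These overlap, and the ratio turns to -0.08. The difference in shape does not depend on the scale: the first 45 kb held 61.6% to 65.6% of flank reads in control and 48.5% to 52.3% in R1R2_KO.

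Beyond 45 kb the groups separated on both scales. Control held 3366, 3233 and 2830 reads per 100000 there and R1R2_KO 6113, 5475 and 5808, a ratio of 1.84. Far-scale values were 11060, 12211 and 10676 against 14944, 13902 and 14823, a ratio of 1.29. Control and R1R2_KO did not overlap in either case.

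Of the 11 blocks, 10 were higher in R1R2_KO by edgeR's quasi-likelihood test (Benjamini-Hochberg adjusted p under 0.05 over 603 blocks of the chromosome), where 31.8% of all blocks tested were higher and 3.32% lower. The block next to the globin genes (32204980 to 32249286) was the exception, with 5402, 5823 and 5388 in control and 5747, 5997 and 6318 in R1R2_KO (log2 fold change 0.12, SE 0.06, edgeR adjusted p = 0.0999). The libraries overlap in that block. The strongest rise was at 360 to 405 kb (32565092 to 32609628), with 221, 212 and 169 in control and 486, 489 and 427 in R1R2_KO. Its log2 fold change was 1.22 (SE 0.15, edgeR adjusted p = 1.43e-10), and the groups lay far apart. The block at 45 to 90 kb (32249287 to 32294893) rose from 518, 554 and 462 to 973, 797 and 914 (0.81, SE 0.11). The weakest rise was in the last block, 32655261 to 32699946, from 77.3, 68.3 and 98.3 to 139, 108 and 117 (0.60, SE 0.22, edgeR adjusted p = 0.0304).

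By far-scale values 6 blocks were higher (6.30% of all blocks tested) and 1 was lower (7.96%). The 6 were those at 90 to 135, 180 to 225, 270 to 315, 315 to 360, 360 to 405 and 405 to 450 kb, with log2 fold changes from 0.36 to 0.70. The first block fell, by 0.40 on the log2 scale (edgeR adjusted p = 0.000633): its far-scale values were 17751, 21991 and 20323 in control and 14050, 15228 and 16122 in R1R2_KO. The median block of the chromosome changed by 0.62 on the chr11 scale and 0.10 on the far scale, and the median flank block by 0.88 and 0.36. Set against the chromosome, the flank median stood 0.25 higher. A change of scale moves every block of a comparison by about the same amount, so this difference is nearly equal on both by construction. TMM factors, which centre on the bulk of the blocks, left 2 blocks higher and 1 lower.

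In 5 kb bins, none of the 5 bins of the first 25 kb passed the test on the chr11 scale, with log2 fold changes from -0.05 to 0.11. The first bin to rise lay at 25 to 30 kb (32230081 to 32235005), from 297, 286 and 278 to 386, 357 and 423 (log2 fold change 0.44, edgeR adjusted p = 0.00168). Over the flank 89 bins had enough reads to be tested; 64 were higher, all beyond 25 kb, and none lower (49.8% of all 285 bins tested were higher and 4.91% lower). The far scale gave 7 higher and 5 lower (5.61% and 14% of all tested), the 5 lower bins being those of the first 25 kb. The split at 25 kb was chosen after the bins were seen. The count of 64 fell to 42 without R1R2_KO replicate 1, which is the deepest of its group, and to 9 when bins under 90 reads were tested too.

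The bins with the highest log2 fold changes in R1R2_KO lay at 370 to 375 kb and 120 to 125 kb. The first (32574992 to 32579214) held 11.8, 12.54 and 12.46 in control and 48.2, 37.6 and 41.1 in R1R2_KO (1.79, SE 0.45, edgeR adjusted p = 0.000634), and on the far scale 1.27. The second (32325186 to 32329896) lies in the trough and held 11.8, 13.9 and 8.31 against 41.5, 30.6 and 32.9 (1.63, SE 0.47). Libraries did not overlap in either bin. Next in order were bins at 125 to 130, 400 to 405 and 365 to 370 kb, with 1.57, 1.54 and 1.496. Of these 5 bins, those at 120 to 130 kb did not pass on the far scale (edgeR adjusted p = 0.0810 and 0.120). The 90-read filter summed all 9 libraries. Bins as low in control as those at 370 to 375 and 120 to 130 kb thus entered the test partly through deletion libraries. Their rank and p-values carry that limit.

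Without R2 and R3 the flank changed less. Totals were 9294, 9764 and 9862, all above control (log2 ratio 0.15), but on the far scale they were 25410, 25936 and 26345, all below it (-0.28). Beyond 45 kb R2R3_KO held 3802, 4214 and 3997 reads per 100000, again above every control library. Scaled to far reads it held 10396, 11193 and 10678, which overlaps control (a ratio of 0.951). The direction of the flank total in R2R3_KO therefore rests on the scale.

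By edgeR, 4 of 11 blocks were higher in R2R3_KO (12.1% of all blocks tested were higher and 0.332% lower), at 45 to 90, 90 to 135, 180 to 225 and 270 to 315 kb. The strongest was 32294894 to 32339586, with 248, 308 and 296 in control and 413, 473 and 385 in R2R3_KO (log2 fold change 0.58, SE 0.14, edgeR adjusted p = 0.00140). On the far scale none was higher and 2 were lower (1.16% and 1.82% of all tested): the first block (-0.40, edgeR adjusted p = 0.00291) and the last (-0.83, edgeR adjusted p = 0.0338). The median flank block changed by 0.34 and the median block of the chromosome by 0.41, so the flank did not stand above the chromosome here. The count of 4 fell to 1 without control replicate 3 and to 2 without R2R3_KO replicate 2, and rose to 6 without control replicate 1.

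The 5 kb bins tested were 5 in the first 25 kb and 84 beyond. Of these, 9 were higher in R2R3_KO and none lower on the chr11 scale (17.2% of all tested on the chromosome were higher and 3.16% lower). On the far scale none was higher and 5 were lower (1.05% and 8.77%). Called bins were thus a smaller share of the flank than of all bins tested, on both scales. The strongest rise was at 125 to 130 kb in the trough (32329897 to 32335335), from 13.1, 4.18 and 9.69 to 18.3, 37.7 and 31.2 (log2 fold change 1.66, SE 0.50, edgeR adjusted p = 0.0121). This bin is so low in control that it passed the 90-read filter partly through the deletion libraries, which limits its rank and p-value. The next rises lay at 280 to 285, 110 to 115, 205 to 210 and 285 to 290 kb, with 1.06 to 0.89. In the first of these, R2R3_KO libraries held 60.5, 52.8 and 19.2 and control 31.4, 22.3 and 11.1, which overlap. Without R2R3_KO replicate 2 edgeR called 0 bins (19 had an unadjusted p under 0.05), and without control replicate 3 it called 4; DESeq2 with the same library sizes called 5.

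The 2 paired deletions differed from each other over most of the flank on both scales. R2R3_KO was lower than R1R2_KO in 10 of 11 blocks on the chr11 scale (9.62% of all blocks tested were lower and 5.97% higher) and in 9 on the far scale (7.46% in either direction), again sparing the block next to the globin genes (log2 fold change -0.10 and 0.00). The difference was largest in the last block, 32655261 to 32699946, where R1R2_KO held 139, 108 and 117 and R2R3_KO 58.7, 50.9 and 76.9 (-0.999, SE 0.24, edgeR adjusted p = 0.00258). At 360 to 405 kb R1R2_KO held 486, 489 and 427 and R2R3_KO 325, 275 and 207 (-0.79, SE 0.15). Libraries of the groups did not overlap in either block. The median flank block stood at -0.56 against -0.22 for the median block of the chromosome. The count of 10 fell to 6 without R1R2_KO replicate 1 or R2R3_KO replicate 1, and TMM factors gave 4.

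In 5 kb bins, 8 were lower in R2R3_KO than in R1R2_KO and none higher (3.86% of all tested were lower and 2.46% higher), and 5 on the far scale (2.46% lower and 3.16% higher). The largest difference was at 390 to 395 kb (32594956 to 32600176), where R1R2_KO held 50.5, 54.1 and 57.5 and R2R3_KO 27.5, 7.54 and 4.81 (log2 fold change -1.94, SE 0.45, edgeR adjusted p = 0.000738). The next lay at 195, 165, 365 and 240 kb, by the start of each bin, with -1.38, -1.10, -1.09 and -0.90. The count of 8 fell to 3 without R1R2_KO replicate 1 or 2, to 4 without R1R2_KO replicate 3 or R2R3_KO replicate 1 and to 5 without R2R3_KO replicate 3, and rose to 12 without control replicate 2.

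**Figure D2:**
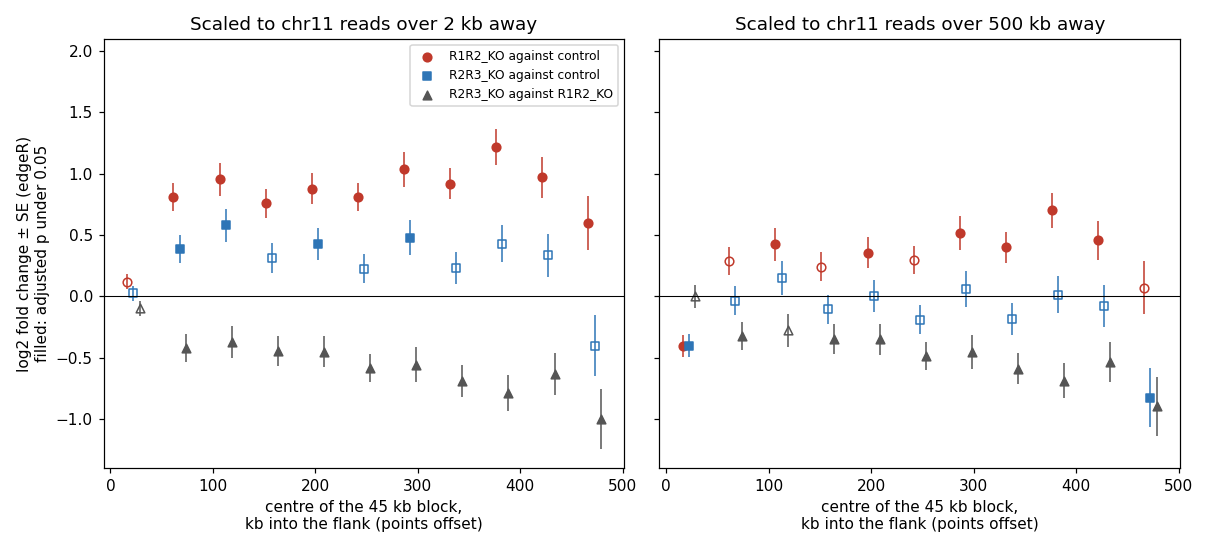
Log2 fold change with its SE (edgeR, 3 libraries a group) for each of the 11 blocks of 45 kb against distance into the flank in kb, on the chr11 scale (left) and the far scale (right); filled points have an adjusted p under 0.05. On the left 10 red points for R1R2_KO are filled and positive, on the right 6 are, and of the R2R3_KO points 4 are filled and positive on the left, while on the right only those of the first and last block are filled, at -0.40 and -0.83.

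**Figure D3:**
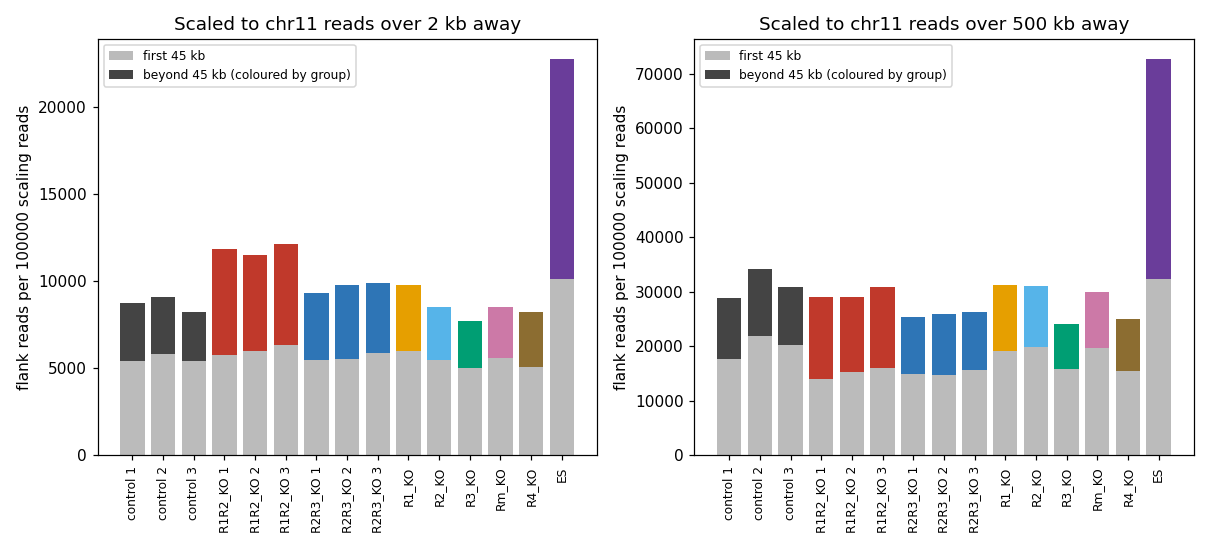
Flank reads per 100000 scaling reads in each of the 15 libraries, on the chr11 scale (left) and the far scale (right); grey is the first 45 kb and colour the rest of the flank. The coloured part is larger in the 3 R1R2_KO libraries than in the 3 control libraries on both scales, and largest in ES.

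The shape of the profile was also measured in ways that need no scale. The median position of the flank reads lay 19.1, 18.2 and 17.9 kb into the flank in control, 49.6, 35.5 and 37.4 kb in R1R2_KO and 24.3, 27.4 and 25.4 kb in R2R3_KO. No 2 of these groups overlap. The exponent of decay beyond 45 kb is the slope of log2 reads, with 0.5 reads added per bin, on log2 distance. It was -0.70 ± 0.08 (SD, n = 3) in control, -0.67 ± 0.07 in R1R2_KO and -0.85 ± 0.07 in R2R3_KO. Control and R1R2_KO overlap, and R2R3_KO was steeper than every library of both. Fitted over the whole flank, the exponent was -0.950 to -1.056 in control, -0.838 to -0.928 in R1R2_KO and -1.023 to -1.070 in R2R3_KO. There R2R3_KO overlapped control and R1R2_KO did not, so these overlaps rest on the stretch fitted. All 3 group comparisons of the median position, and 2 of the exponent beyond 45 kb, gave an exact two-sided permutation p of 0.1. For that exponent R1R2_KO against control gave 0.8.

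The upstream side offered a reference at equal distance. Reads 100 to 500 kb downstream of the last viewpoint were set over reads 100 to 500 kb upstream of the first (861 and 880 fragments), as a log2 ratio. Control gave -0.55, -0.63 and -0.77, so the downstream side held fewer reads in each library. R1R2_KO gave -0.27, -0.26 and -0.19, above every control library, and R2R3_KO gave -0.94, -0.74 and -0.83, which overlaps control. The downstream side thus gained more than the upstream side in R1R2_KO (difference 0.41, exact permutation p = 0.1), and in R2R3_KO the difference from control was -0.19 (exact permutation p = 0.2). These were among 12 comparisons of library values, with a smallest adjusted p of 0.12.

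Reads 100 to 500 kb from the other viewpoints of the same libraries moved in R2R3_KO as well. On the higher-coordinate side, the adult beta-globin viewpoint had 4.28% to 4.85% of its chromosome reads at that distance in control, 4.06% to 5.26% in R1R2_KO and 5.27% to 5.93% in R2R3_KO. The viewpoint of Slc25a37, which encodes an iron importer of mitochondria, had 3.25% to 3.42%, 3.37% to 3.93% and 4.10% to 4.23%. The alpha-globin flank side had 2.34% to 2.82%, 4.64% to 5.09% and 3.12% to 3.51%. R1R2_KO overlapped control at both other viewpoints on this side and not at alpha-globin, while R2R3_KO lay above control at all 3. The share of chromosome reads more than 500 kb away was also higher in R2R3_KO at both other viewpoints. At beta-globin it was 46.6% to 50.5% in R2R3_KO against 36.8% to 43.996% in control. At Slc25a37 it was 45.1% to 47.3% against 32.6% to 39.1%. R1R2_KO overlapped control in this share at both other viewpoints. Per the file headers the R2R3_KO libraries carry the same sample numbers as R1R2_KO, and the control the numbers after them. Were this a sequencing run of its own, its part in the R2R3_KO values could not be told apart from the deletion.

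Loss of 1 element left the flank near the level of the other single deletions, with R1_KO highest. Flank totals were 9759 in R1_KO, 8529 in R2_KO, 7698 in R3_KO, 8482 in Rm_KO and 8206 in R4_KO, with Wilson 95% intervals from 9668 to 9851 for R1_KO and from 7610 to 7787 for R3_KO. These intervals are binomial and cover counting error within a library alone. Reads carry no molecular identifiers, so any duplicate reads are not allowed for, and there is no replicate check. R1_KO stood at 1.19 times the mean of the other 4 and R3_KO at 0.880 times; on the far scale these were 1.13 and 0.825. R2_KO stood at 0.999 times, Rm_KO at 0.992 times and R4_KO at 0.952 times on the chr11 scale, and at 1.13, 1.07 and 0.858 times on the far scale, so their direction rests on the scale for R2_KO and Rm_KO.

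R1_KO was above all 4 other deletions in 9 of 11 blocks (20.9% of all blocks with 90 or more reads), and in 7 on the far scale (19.1%). Its highest ratio was 1.44, in the block at 180 to 225 kb, where it held 425 against 263 to 340 in the others. No flank block passed 1.5-fold in R1_KO, while 15.1% of all blocks did upward. R3_KO was below all 4 others in 7 blocks (16.9% of all blocks), and in 8 on the far scale (20.9%). The median position of the flank reads was 22.3 kb in R1_KO and 17.5 to 19.1 kb in the other 4. At 100 to 500 kb on the higher-coordinate side, R1_KO was also highest at the beta-globin viewpoint (4.58% against 3.52% to 3.89%). The same held at Slc25a37 (3.96% against 3.26% to 3.79%). On the lower-coordinate side it was highest at beta-globin (3.23% against 2.08% to 2.88%) but not at Slc25a37 (1.99% against 1.66% to 2.14%). The part of this wider difference in the R1_KO flank values was not tested.

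In ES cells contact with the flank was higher in every block than in the single deletions, least in the block next to the globin genes. The ES total was 22747 (Wilson 95% interval 22635 to 22860), against 7698 to 9759 in the single deletions, or 2.67 times their mean. On the far scale it was 72802 against 24176 to 31248, or 2.57 times. With the enhancer cluster and globin genes left out of the scaling reads (the outside-domain scale) the ratio of totals was 1.81, so its size rests on the denominator while the direction of the total held on the 4 scales tried. ES had 1 library and was of another strain, so cell type, strain and library cannot be told apart.

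All 11 blocks were past 1.5-fold higher in ES, on the far scale too, and 30.7% of all 1634 blocks were past it (29.3% on the far scale). On the outside-domain scale 10 were (16.5% of all blocks), with the first block at 1.26 times and the block at 225 to 270 kb at 1.56 times. The first block was least raised, with 10143 in ES against 5026 to 5973 in the single deletions (1.87 times). The block at 45 to 90 kb held 2578 against 444 to 675 (5.01 times), that at 90 to 135 kb 1701 against 249 to 385 (5.57 times), and the last 448 against 61.2 to 94.97 (5.82 times). Next were the blocks at 270 to 315 and 405 to 450 kb, at 4.62 and 4.49 times. The block at 225 to 270 kb, which holds the erythroid high, was the second lowest at 2.30 times, with 1146 in ES against 386 to 565, followed by 315 to 360 kb at 3.31, 360 to 405 kb at 3.67 and 135 to 180 kb at 3.87. Block by block ES exceeded every single deletion on the 3 scales.

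**Figure D4:**
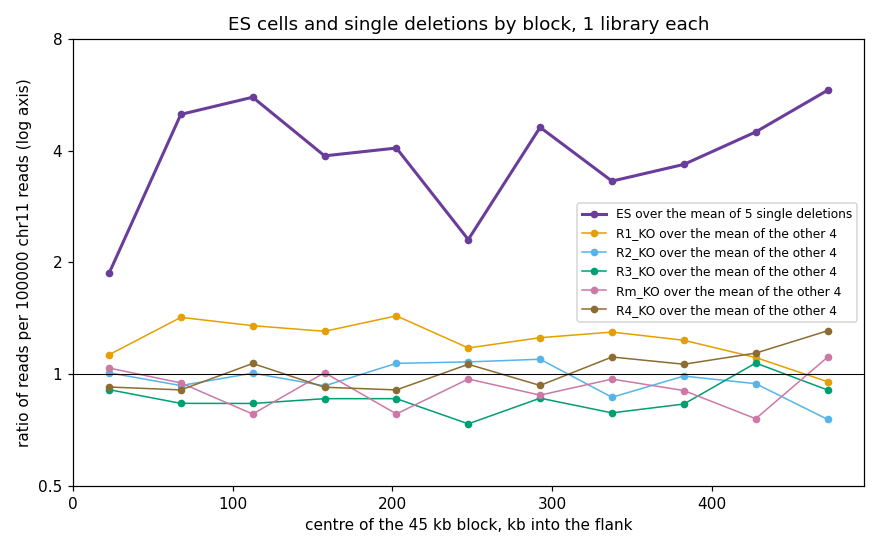
Ratio of reads per 100000 chr11 reads (log axis) in each 45 kb block against distance into the flank in kb: ES over the mean of the 5 single deletions, and each single deletion over the mean of the other 4, 1 library each. ES lies between 1.87 and 5.82, lowest in the first block and in the block at 225 to 270 kb, and R1_KO lies above 1 in 10 of 11 blocks.

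In 5 kb bins ES was above all 5 single deletions in 99 of 99 bins on the chr11 scale (30.3% of all bins with 90 or more reads), in 98 on the far scale (29.7%) and in 94 on the outside-domain scale (23.3%). The 5 exceptions on the last scale lay within 5 to 20 kb and at 32439551 to 32449806, and the lowest ratio there was 0.910. On the chr11 scale the ratio to their mean within the first 25 kb was 1.34 to 2.08, with a median of 1.66. Beyond 25 kb it was 1.39 to 9.66, with a median of 4.42; the lowest of these lay at 32439551 to 32444189, just past the local high, and the highest at 465 to 470 kb. The block at 225 to 270 kb held 0.888 times the mean of its neighbouring blocks in ES and 1.46 to 2.08 times in the 14 erythroid libraries, so the local high of the erythroid profile was not a block-level high in ES.

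The ES profile was flatter overall. Its first 45 kb held 44.6% of flank reads, against 61.2% to 66.0% in the single deletions, and the median position of its flank reads lay at 61.3 kb, farther than in any of the other 14 libraries. Downstream and upstream reads at 100 to 500 kb were nearly even, with a log2 ratio of -0.08 against -0.74 to -1.08 in the single deletions. At 200 to 500 kb the ES ratio was 0.26, so its sign rests on the window, against -0.74 to -1.18 in the single deletions. The exponent of decay beyond 45 kb was -0.76, inside the range of the single deletions (-0.61 to -0.81). Fitted over the whole flank it was -0.87, outside their range (-0.95 to -1.04). At the other viewpoints ES also held more reads at 100 to 500 kb, 11.4% against 3.52% to 4.58% on the higher-coordinate side of beta-globin and 9.18% against 3.26% to 3.96% at Slc25a37, beside 9.84% against 2.20% to 3.08% on the flank side of alpha-globin. The part of this wider difference in the flank result was not tested.

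**Figure D5:**
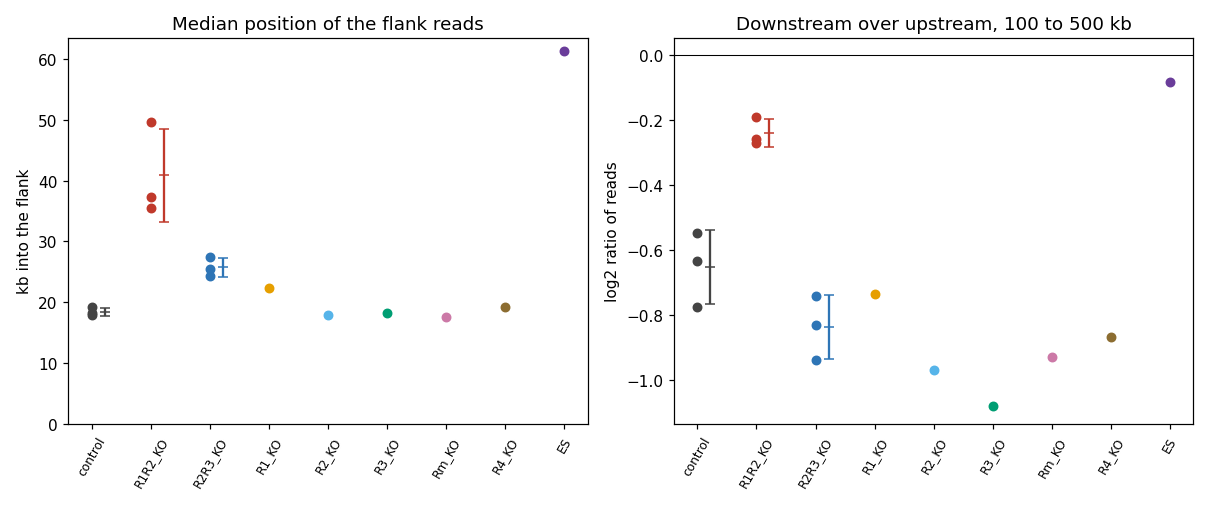
Median position of the flank reads in kb (left) and log2 ratio of downstream over upstream reads at 100 to 500 kb (right) for each library; points are libraries, and bars beside the 3 replicated groups are mean ± SD (n = 3). R1R2_KO lies above control in both panels, R2R3_KO in the left panel alone, and ES highest in both.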

How the data were processed

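The authors deposited raw read counts per DpnII fragment for the viewpoint in mm9. The submitters' processing notes name Trim Galore and Bowtie; their versions are not given in the sources used here. A gap of at least 1500 bp at a captured promoter was taken as its viewpoint, and 7 further columns of each replicated table match no sample and were not used (21 in all). Fragments were assigned by midpoint and summed from the flank start. Bins with 90 or more reads over the 9 replicated libraries were tested on counts with edgeR 4.0.16 (quasi-likelihood, 3 groups in 1 fit, library size as the chr11 scale, no further factors), adjusted by Benjamini-Hochberg over all bins of the chromosome tested. The step was tested on simulated data. DESeq2 1.42.0, TMM factors, other scales, filters and bins, and leaving out each library were alternatives. Exact permutation tests (scipy 1.17.1) used library values. Named regions are all blocks, bins of the first 100 kb, the 5 highest and lowest called bins per comparison, the 5 highest and lowest ES blocks and the strongest fall and rise. The flank and these rules were chosen with earlier results of these data known. Since no label says whether replicates share a litter or culture day, p-values cover only the spread among these libraries, which may be technical. Replicates differed by more than sampling noise (chi-square over its degrees of freedom 1.62 to 2.25 over flank bins). Deviations of same-numbered libraries were weakly correlated (-0.20 to 0.22), which cannot exclude pairing since counting noise could hide it. No label pairs them, so numbers were not taken as pairs. No mm9 genome was used, so flank fragments carry no sequence or gene annotation here.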

Additional observations from a re-analysis of the deposited data

How the results depend on the processing

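Reversed values, and totals and counts that an alternative moved past the replicate spread or by over 1.5 times, are given here; the cause was not tested except where fewer libraries or more regions tested enter by construction. Flank totals turned from 0.45 to -0.0779 (far scale) and -0.0577 (chr11 reads outside the domain) for R1R2_KO against control, and from 0.15 to -0.28 and -0.23 for R2R3_KO. ES over the single deletions gave 2.57, 1.81 and, with a 5 kb viewpoint zone, 2.57. Of 11 blocks past 1.5-fold in ES, 10 were past it outside the domain, where block 1 fell from 1.87 to 1.26 and block 6 from 2.30 to 1.56, and 10 were past 2-fold on the chr11 scale. On the far scale and outside the domain R1_KO gave 1.13 and 1.10, R2_KO 1.13 and 1.08 (1.01 with the 5 kb zone), R3_KO 0.825 and 0.866, Rm_KO 1.07 and 1.06, and R4_KO 0.858 and 0.896 (0.938 with the 5 kb zone).

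Called blocks for R1R2_KO against control were 3 with TMM factors and 3 with DESeq2's own size factors. For R2R3_KO against control they were 2 on the far scale, 2 outside the domain, 2 with TMM, 1 with DESeq2's own factors and 2 with no filter. For R2R3_KO against R1R2_KO they were 6 outside the domain, 4 with TMM and 4 with DESeq2's own factors. Called 5 kb bins for R1R2_KO against control were 12, 12, 15, 6 and 9 on the far scale, outside the domain, with TMM, with DESeq2's own factors and with no filter, and 41 in 10 kb bins. For R2R3_KO against control the same first 4 settings gave 5, 5, 4 and 4, DESeq2 with the same library sizes 5, and edgeR with no filter 0 (23 at an unadjusted p under 0.05). Between the paired deletions they gave 5, 5, 5 and 1, DESeq2 with the same sizes 5, edgeR with no filter 0 (33 at an unadjusted p under 0.05), leaving domain bins out of the adjustment 5, and 10 kb bins 20.

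Single blocks that changed direction are given in the order far scale, outside the domain, TMM and DESeq2's own factors. For R1R2_KO block 1 gave -0.40, -0.38, -0.49 and -0.49, and block 11 gave -0.0149 and -0.0197 with the last 2. The result for block 1, R2R3_KO against control, gave -0.40, -0.36, -0.38 and -0.39 (-0.0194 with the 5 kb zone and -0.00440 to 0.0626 with 1 library left out). For R2R3_KO block 4 gave -0.11, -0.0637, -0.0877 and -0.10, block 6 -0.19, -0.15, -0.17 and -0.18, block 8 -0.19, -0.14, -0.17 and -0.18, and block 10 -0.0800, -0.0383, -0.0616 and -0.0683. Block 2 gave -0.0350, -0.0152 and -0.0238 on the far scale, with TMM and with DESeq2's own factors. Between the paired deletions block 1 gave 0.00137, 0.0268, 0.10 and 0.10. Over 912 values of 48 region and comparison pairs, 704 kept direction and side, 164 lost the threshold, 9 gained it and 35 reversed.

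With 1 library left out, called blocks ran from 9 to 10, from 1 to 6 and from 6 to 10 for R1R2_KO against control, R2R3_KO against control and R2R3_KO against R1R2_KO, and called bins from 42 to 66, 0 to 11 and 3 to 12. Flank totals ran from 0.41 to 0.48, 0.11 to 0.18 and -0.32 to -0.27, and the exponent difference from -0.00868 to 0.0667, -0.19 to -0.11 and -0.22 to -0.14. The median position difference ran from 18.1 to 25.1, 6.469 to 7.99992 and -17.8 to -10.8 kb, and the downstream over upstream difference from 0.35 to 0.46, -0.25 to -0.13 and -0.65 to -0.55. With the replicate number as a block, edgeR called 10, 5 and 10 blocks and 64, 10 and 11 bins. Totals were then 0.45, 0.15 and -0.29. No label says that the numbers pair the samples, so this is not given as a paired result. Depth limits the replicated bins: 10 of 99 flank bins held under 90 reads over 9 libraries and were not tested.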
